A study of Mus musculus with 6 samples.

Results

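The genes followed here are 31 genes of radial glia and neuroepithelial progenitors, listed by symbol, out of 19938 genes measured. All 31 had exactly 1 probe set with a single gene symbol, and that probe set was used. The cells came from CTIP2:GFP KI mESCs, mouse embryonic stem cells of a 129SVEV line into whose Ctip2 locus an IRES-GFP reporter had been placed by recombination, with the Neo cassette still present. They were turned into cortical progenitors by the SFEBq method, in which cells form floating aggregates, with the TGF-beta receptor inhibitor SB-431542 and the WNT inhibitor WNT-C59 given early in culture. CTIP2 (gene Bcl11b) is a zinc finger transcription factor of layer V cortical neurons that is also made in the striatum. The cells were sorted by fluorescence into a CTIP2:GFP+ and a CTIP2:GFP- fraction on day 11, day 12 and day 13, and the RNA of each fraction and day was hybridised to 1 GeneChip Mouse Gene 1.0 ST array, so that 6 arrays were compared. Both fractions therefore shared the line, the Neo cassette and both inhibitors, and the GFP- fraction holds every cell without detectable reporter, not a defined cell type.

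Neuroepithelial cells line the early neural tube and divide at its inner surface. As neurogenesis begins they turn into radial glia, which keep their cell bodies in the ventricular zone, send a process to the pial surface along which newborn neurons migrate, and give rise to neurons directly or through intermediate progenitors. Both cell types are kept undifferentiated by SOX transcription factors and Notch signaling, and radial glia add proteins that astrocytes later share, such as a glutamate transporter and a brain lipid-binding protein.

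As a group these genes were lower in GFP+ than in GFP- cells. The list was chosen with earlier results of these data known, so the shares set beside those of all genes describe the list and do not test it. The mean difference over the 3 days (GFP+ minus GFP-, log2 scale) was below 0 for 30 of the 31 genes and for 11763 of all 19938 genes. Its median was -1.04 for the 31 genes, against -0.05 over all genes. At an adjusted p under 0.05 from limma, which compared the fractions within days and adjusted by Benjamini-Hochberg over all genes, 10 of the 31 were lower in GFP+ cells and 0 were higher, while 0.567% of all genes were called lower and 0.797% higher. The 10 genes were Slc1a3, Ednrb, Acsbg1, Ccnd1, Nes, Tnc, Sox9, Veph1, Psat1 and Vim, each of them also over 2-fold lower. At an unadjusted p under 0.05, 23 of the 31 were lower and 0 higher (5.96% and 9.58% of all genes). A further 6 genes, Mfge8, Tead2, Pax6, Pla2g7, Fgfbp3 and Ptprz1, were over 2-fold lower on average without passing the test, which makes 16 of 31 over 2-fold lower, against 1.02% of all genes. No member was over 2-fold higher on average (1.97% of all genes). In a bulk sample, fewer cells that express a gene and less RNA per cell cannot be told apart. No day was repeated, so the p-values rest on how far the 3 daily differences spread. The eBayes step of limma also draws the variance of each gene toward a value shared by all genes. A standard error or p-value here is therefore not a measure of that gene's own spread alone. The labels do not say whether the days were separate cultures. The methods state in general terms that experiments were independently repeated, without tying this to the arrays.

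The lower level of the group was present on each day. Medians of the daily differences of the 31 genes were -0.96 (day 11), -1.26 (day 12) and -1 (day 13), while that of all genes was -0.01, -0.01 and -0.07. After a further quantile normalization the medians of the 31 were -1.08, -1.05 and -1.41. Which day had the largest median difference therefore depended on the scaling of the arrays. Over 2-fold lower were 15 members on day 11 (1.30% of all genes), 19 on day 12 (2.43%) and 15 on day 13 (2.29%), and 10 members were over 2-fold lower on every one of the 3 days, against 0.391% of all genes. On all 3 days 22 of the 31 were lower by any amount (21.4% of all genes), and for 19 of them the highest GFP+ array lay below the lowest GFP- array (7.85% of all genes). None was higher on all 3 days (16.9% of all genes) or had all GFP+ arrays above all GFP- arrays (9.05%). In the other direction, Sox1 alone was over 2-fold higher on any single day, which was day 11 (1.85% of all genes were over 2-fold higher that day, 1.48% on day 12 and 9.18% on day 13).

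**Figure D1:**
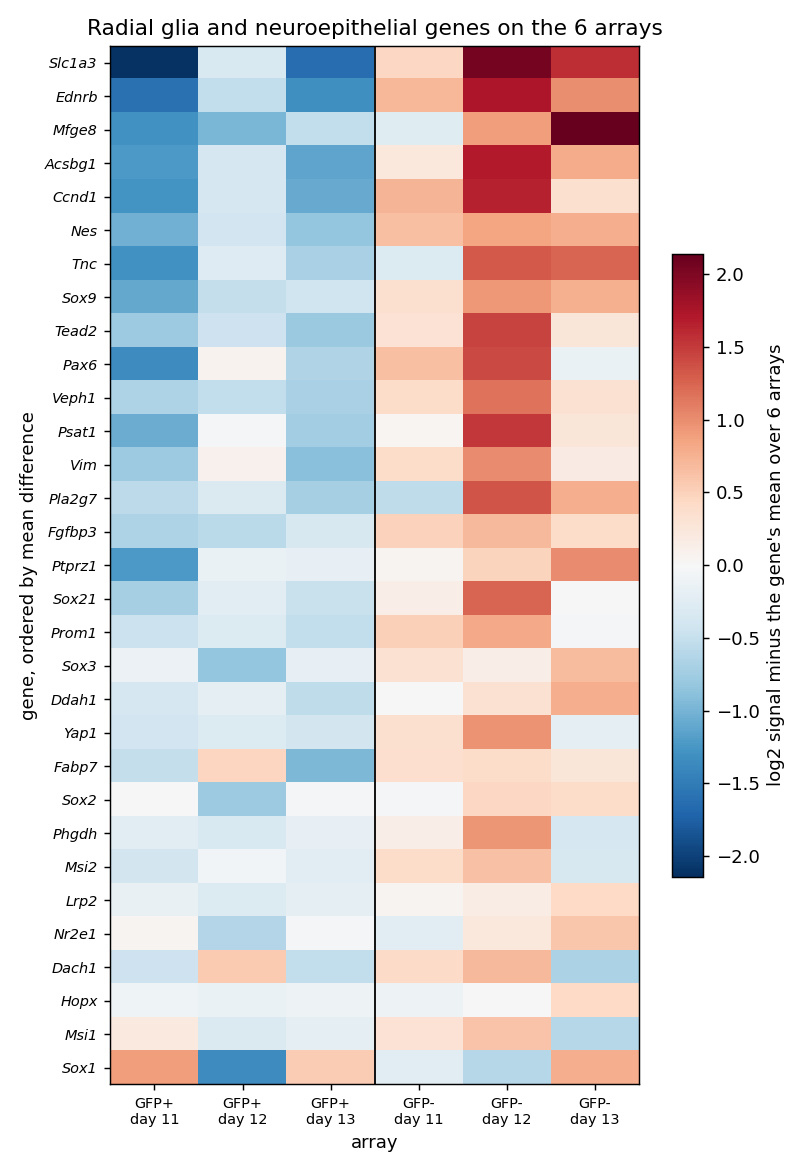
Log2 signal of each of the 31 genes (rows, ordered by mean difference) on the 6 arrays (columns, GFP+ left and GFP- right), shown by color as the deviation from the mean of that gene over the 6 arrays. The GFP+ columns are below the gene's mean for most genes, and Sox1, in the bottom row, departs from this on day 11 and day 13.

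One array stood apart. Signals on the GFP- array of day 13 were spread less widely (SD 1.11) than those on the other 5 (SD 1.29 to 1.48), and its highest correlation with any other array was 0.927, against 0.963 to 0.990 for the others. Without day 13 the median difference of the members was -1.04 and 17 of them were over 2-fold lower (1.45% of all genes), but 0 genes of any kind passed the limma test (22 of the 31 and 7.63% of all genes were lower at an unadjusted p under 0.05), and the 10 genes named above then had an adjusted p of 0.0525 to 0.0766. After centring each array on its median 0 genes passed as well (21 of the 31 and 4.36% of all genes lower unadjusted), with adjusted p of 0.0981 to 0.160 for the 10, and 13 of the 31 were over 2-fold lower (0.868% of all genes). When the day was left out of the model, 2 of the 31 were called lower, Nes and Fgfbp3, against 0.206% of all genes. Bcl11b, the gene carrying the reporter, had signals of 8.76, 7.91 and 8.54 in GFP+ cells, against 6.44, 6.28 and 6.88 in GFP- cells on day 11, day 12 and day 13, so the labels hold on every day (log2 difference 1.87, adjusted p = 0.0248). Of 8 genes that mark intermediate progenitors, Eomes was low in both fractions, with mean signals of 5.10 in GFP+ and 5.32 in GFP- cells. The 20th percentile of all values was 4.65. The others of the 8 had higher mean signals in GFP- cells than Eomes. Neurog1, for example, was at 5.55 in GFP+ and 6.96 in GFP- cells, and Btg2 at 6.03 and 7.15. All 8 had a mean difference below 0, as did 11763 of all 19938 genes.

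To show the regulatory sequence of the genes with the largest decrease among those past the test that have a promoter entry, the 250 bases before the transcription start are given for Slc1a3, Ednrb and Acsbg1. Each is written 5′ to 3′ on the strand of the gene, from RefSeq on build GRCm38.p6, at chr15:8710808-8711057, chr14:103843702-103843951 and chr9:54661886-54662135, all on the minus strand. The start used for Ednrb is not the outermost annotated end of the gene. Capitals mark a match to the RBPJ motif TGGGAA, the core bound by the DNA-binding partner of Notch.
Slc1a3: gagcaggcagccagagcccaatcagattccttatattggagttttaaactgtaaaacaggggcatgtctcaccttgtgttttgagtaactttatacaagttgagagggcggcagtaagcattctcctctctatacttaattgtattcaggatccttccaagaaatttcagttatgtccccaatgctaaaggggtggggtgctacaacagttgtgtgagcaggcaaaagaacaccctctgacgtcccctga
Ednrb: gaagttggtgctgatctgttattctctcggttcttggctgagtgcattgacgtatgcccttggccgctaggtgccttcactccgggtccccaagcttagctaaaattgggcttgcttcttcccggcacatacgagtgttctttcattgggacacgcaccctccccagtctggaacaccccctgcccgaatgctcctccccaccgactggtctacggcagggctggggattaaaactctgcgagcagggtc
Acsbg1: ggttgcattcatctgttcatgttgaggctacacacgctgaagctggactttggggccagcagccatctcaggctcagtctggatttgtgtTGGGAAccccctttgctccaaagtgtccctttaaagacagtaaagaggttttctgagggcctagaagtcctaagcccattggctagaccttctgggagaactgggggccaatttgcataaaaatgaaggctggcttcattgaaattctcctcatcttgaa
These windows and those of the other members were searched on both strands for TGGGAA (RBPJ), CATTGT (SOX proteins) and GGAATG (TEAD proteins). Of the 31 genes, 27 had a promoter entry, with 34 start sites between them. The RBPJ letters were in 8 of the 34 windows (23.5%), against 21.6% of 32851 windows of all genes, and belonged to Acsbg1, Fabp7, Mfge8, Nr2e1, Prom1, Tead2 and Tnc. The SOX letters were in 0 of the 34, against 10.7% of all windows, and the TEAD letters in 2 of the 34 (5.88%), those of Veph1 and Yap1, against 12.6%. A match is a description of the letters in the window and not a bound site.

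The Sox transcription factors were divided. Sox9, a factor of the SoxE group that drives the formation and upkeep of neural stem cells and glia, had signals of 7.24, 7.82 and 7.91 in GFP+ cells on day 11, day 12 and day 13, against 8.68, 9.27 and 9.10 in GFP- cells. The fractions did not overlap, and the daily differences were -1.44, -1.45 and -1.19. Its level was 2.57-fold lower in GFP+ cells (mean log2 difference -1.36 ± 0.14, SE, adjusted p = 0.0272). Sox1, Sox2 and Sox3, the SoxB1 factors that hold neural progenitors in an undifferentiated state, did not pass the test. Sox3 had signals of 6.87, 6.17 and 6.82 in GFP+ cells, against 7.32, 7.13 and 7.67 in GFP- cells, without overlap (log2 difference -0.75, standard error 0.16, adjusted p = 0.0979). Sox2 was at 8.49, 7.73 and 8.48 in GFP+ cells, against 8.48, 8.94 and 8.90 in GFP- cells. The fractions were level on day 11 and furthest apart on day 12, with differences of 0.01, -1.21 and -0.43. Sox1 was at 9.08, 6.84 and 8.73 in GFP+ cells, against 7.95, 7.57 and 8.96 in GFP- cells. Its differences of 1.13, -0.73 and -0.23 changed sign between days, and their mean was 0.06 with a standard error of 0.35, the only mean above 0 among the 31. Sox21, a SoxB2 factor that promotes neuronal differentiation against SoxB1 activity, was at 5.84, 6.33 and 6.08 in GFP+ cells, against 6.70, 7.80 and 6.57 in GFP- cells (log2 difference -0.94, standard error 0.21, adjusted p = 0.109). Whether Sox9 differed from the SoxB genes in its response was not tested.

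Of the other transcriptional regulators 0 of 6 passed the test, with mean differences of -1.35 to -0.22. Tead2, a DNA-binding partner of YAP, was at 6.92, 7.27 and 6.90 in GFP+ cells, against 8.02, 9.15 and 7.97 in GFP- cells, without overlap and just beyond the threshold (log2 difference -1.35, standard error 0.21, adjusted p = 0.0502). Yap1, the coactivator of the Hippo pathway, was at 5.75, 5.87 and 5.77 in GFP+ cells, against 6.50, 7.13 and 5.96 in GFP- cells (log2 difference -0.74, adjusted p = 0.194). Pax6, a homeobox factor of cortical radial glia, had signals of 6.02, 7.44 and 6.71 in GFP+ cells, against 8.01, 8.79 and 7.22 in GFP- cells. Its daily differences were -1.995, -1.349 and -0.51, with a standard error of 0.29 for the mean of -1.29 (adjusted p = 0.103). Nr2e1, the orphan receptor TLX of neural stem cells, was higher in GFP+ cells by 0.28 on day 11 and lower on the other days (-0.86 and -0.61). Dach1, a nuclear cofactor of progenitors, differed by -0.86, -0.14 and 0.15. Hopx, a marker of outer radial glia in primates, stayed between 4.68 and 5.25 on all arrays, near the 20th percentile of all values, and differed by 0.02, -0.14 and -0.53.

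The RNA-binding proteins of the Musashi family, which repress translation of differentiation genes in stem cells, were the role group with the smallest median difference (-0.33). Msi1 had signals of 9.27, 8.75 and 8.85 in GFP+ cells, against 9.36, 9.67 and 8.45 in GFP- cells, and Msi2 was at 8.59, 8.93 and 8.74 in GFP+ cells, against 9.37, 9.61 and 8.64 in GFP- cells. For both the fractions overlapped, and on day 13 the GFP+ signal was the higher one, by 0.40 for Msi1 and 0.10 for Msi2. That day's GFP- array was the one that stood apart. The mean differences of -0.203 (Msi1) and -0.455 (Msi2) depended on the scaling. They were -0.5 and -0.74 after a further quantile normalization, and -0.148 and -0.399 after centring arrays on their medians.

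Both intermediate filament genes passed the test. Nes, which encodes nestin, the filament protein by which neural progenitors are usually stained, was at 6.11, 6.72 and 6.30 in GFP+ cells, against 7.77, 7.98 and 7.92 in GFP- cells. The spread between GFP- arrays was small (SD 0.11, n = 3), and the decrease was 2.86-fold (log2 difference -1.52, standard error 0.15, adjusted p = 0.0248). Nes also passed with no block for the day (adjusted p = 0.0304), and it lost its call after a further quantile normalization (adjusted p = 0.0708). Vim, the vimentin gene, was at 10.46, 11.34 and 10.35 in GFP+ cells, against 11.64, 12.27 and 11.43 in GFP- cells, which is a 2.08-fold decrease (log2 difference -1.06, standard error 0.14, adjusted p = 0.0376). In both fractions the day 12 array had the highest Vim signal of its fraction.

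Among genes of transport and metabolism 3 of 7 were called lower, Slc1a3, Acsbg1 and Psat1. Slc1a3, the glutamate transporter GLAST of radial glia and astrocytes, had signals of 5.88, 7.66 and 6.37 in GFP+ cells, against 8.44, 10.05 and 9.58 in GFP- cells, and its decrease was rank 1 of all 19938 genes (6.57-fold, log2 difference -2.72, standard error 0.20, adjusted p = 0.024). All GFP+ arrays lay below all GFP- arrays. Acsbg1, an acyl-CoA synthetase of brain lipid metabolism, was at 5.70, 6.56 and 5.80 in GFP+ cells, against 7.16, 8.63 and 7.72 in GFP- cells (3.52-fold lower, mean difference -1.82 ± 0.17, SE, adjusted p = 0.0243). Of Phgdh and Psat1, consecutive enzymes of serine synthesis, Psat1 alone passed, and the difference between the 2 genes was not tested. Psat1 was at 5.95, 6.97 and 6.27 in GFP+ cells, against 7.05, 8.52 and 7.27 in GFP- cells, a 2.33-fold decrease (log2 difference -1.22, standard error 0.17, adjusted p = 0.0425). Phgdh was at 6.07, 5.95 and 6.12 in GFP+ cells, against 6.43, 7.23 and 5.93 in GFP- cells, with daily differences of -0.36, -1.28 and 0.19 (mean -0.48, adjusted p = 0.506). Fabp7, the brain lipid-binding protein of radial glia, was bright on every array, with 11.47, 12.45 and 11.03 in GFP+ cells, against 12.36, 12.39 and 12.25 in GFP- cells. Its differences were -0.88, 0.06 and -1.21 (mean -0.68, standard error 0.26, adjusted p = 0.292), so that the GFP+ array of day 12 reached the GFP- level. Pla2g7, a secreted phospholipase that degrades platelet-activating factor, was level on day 11 (-0.01) and lower in GFP+ cells on day 12 and day 13 (-1.66 and -1.496, mean -1.06, adjusted p = 0.21). Ddah1, an enzyme that breaks down methylarginines, was at 8.52, 8.68 and 8.34 in GFP+ cells, against 8.90, 9.22 and 9.66 in GFP- cells (mean -0.75, adjusted p = 0.179).

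Of 7 surface, matrix and secreted proteins, 2 were called lower and the other 5 had mean differences of -1.86 to -0.42. Ednrb, the endothelin receptor B, had signals of 6.32, 7.39 and 6.61 in GFP+ cells, against 8.63, 9.64 and 8.90 in GFP- cells. The daily differences were close to each other, at -2.31, -2.25 and -2.30 (4.87-fold lower, standard error 0.13, adjusted p = 0.0224). Tnc, the matrix protein tenascin-C of the stem cell niche, was at 5.38, 6.41 and 5.98 in GFP+ cells, against 6.39, 7.99 and 7.93 in GFP- cells (2.85-fold lower, mean difference -1.51 ± 0.21, SE, adjusted p = 0.0431). It was the 1 gene among the 10 called whose fractions overlapped, since the day 12 GFP+ array was above the day 11 GFP- array. Ptprz1, a receptor phosphatase that binds tenascins, was at 7.78, 8.87 and 8.84 in GFP+ cells, against 9.07, 9.50 and 10.03 in GFP- cells (log2 difference -1.04, adjusted p = 0.0623). Mfge8, a secreted protein that bridges phosphatidylserine and integrins, was at 6.09, 6.41 and 6.86 in GFP+ cells, against 7.13, 8.28 and 9.53 in GFP- cells. Its mean difference was the third lowest of the 31 (-1.86), but its spread between days, with a standard error of 0.31, left it beyond the threshold (adjusted p = 0.0592). Prom1, the CD133 protein of apical membrane protrusions, and Fgfbp3, a carrier of fibroblast growth factors, had mean differences of -0.86 and -1.05 without overlap between fractions (adjusted p = 0.0869 and 0.0511). Lrp2, the megalin receptor of the apical neuroepithelium, was dim, between 5.04 and 5.75 on all arrays, and its mean difference was -0.42.

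Both remaining genes were called lower. Ccnd1, the D-type cyclin that drives progenitors through G1, was at 6.49, 7.42 and 6.69 in GFP+ cells, against 8.51, 9.42 and 8.13 in GFP- cells (3.52-fold lower, mean difference -1.82 ± 0.17, SE, adjusted p = 0.0247). Veph1, whose protein was named for its expression in the ventricular zone, was at 5.18, 5.31 and 5.14 in GFP+ cells, against 6.23, 7.01 and 6.17 in GFP- cells. The spread between GFP+ arrays was small (SD 0.09, n = 3), and the decrease was 2.39-fold (log2 difference -1.26, standard error 0.19, adjusted p = 0.0466). With single probe sets instead of genes as the unit of the test, Veph1 had an adjusted p of 0.0506 and lost its call.

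**Figure D2:**
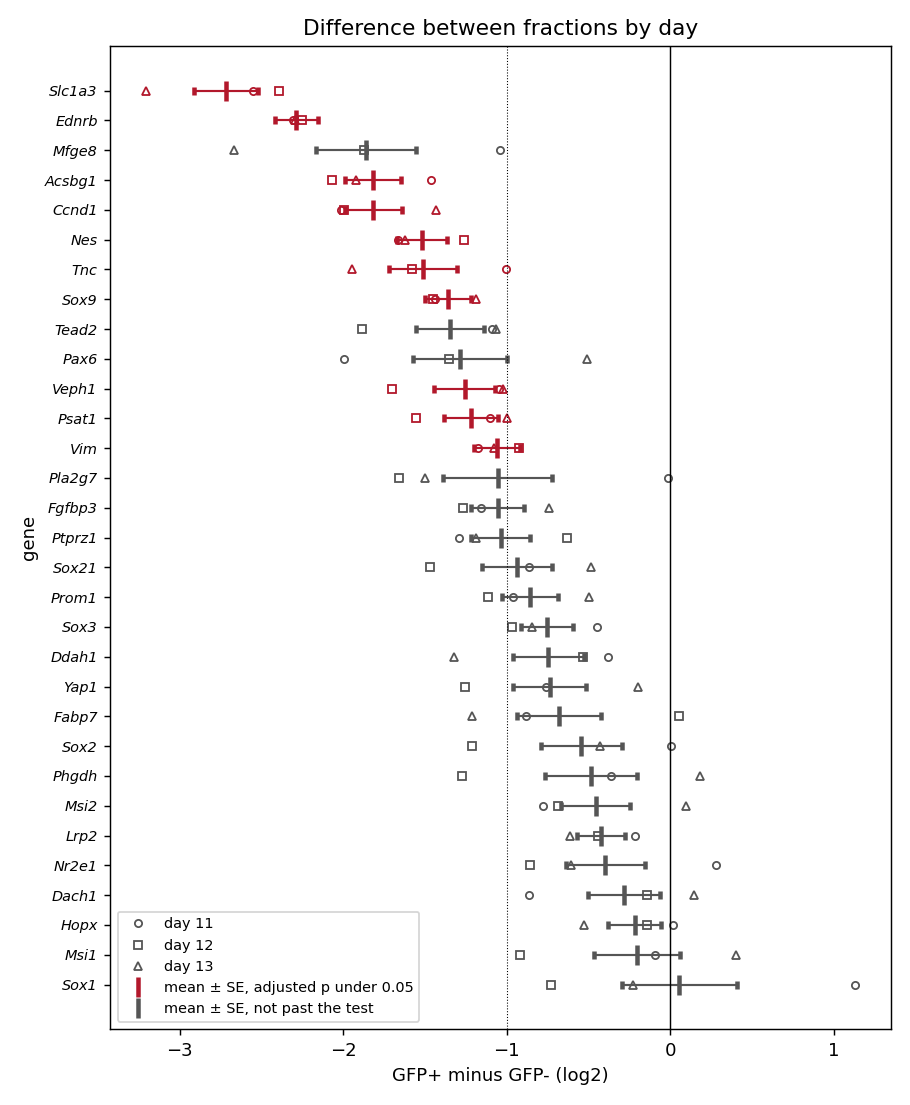
Difference between GFP+ and GFP- cells (x axis, log2) for the 31 genes (y axis). Open symbols are the 3 days, bars with whiskers are the mean ± standard error from limma, red marks the 10 genes past the test and the dotted line is a 2-fold decrease. The means run from -2.72 for Slc1a3 to 0.06 for Sox1.

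To ask whether the difference changed over the days, an interaction of fraction with day as a number was fitted. It passed the test for 0 of the 31 genes and for 0 of all 19938 genes, and at an unadjusted p under 0.05 it held for 1 member and for 0.542% of all genes. The 1 member was Mfge8, whose difference had a slope of -0.81 per day (limma, adjusted p = 0.999). The slope of the level on day, common to both fractions, also passed for 0 genes. At an unadjusted p under 0.05 it held for 3 members (0.873% of all genes), which were Mfge8 (0.79 per day), Tnc (0.54) and Ptprz1 (0.51).

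The level of many members was highest on day 12, a pattern that was looked at after the values were seen. In GFP+ cells 20 of the 31 had their highest signal on day 12, against 31.3% of all genes, and in GFP- cells 23 of the 31, against 39.6%. Both held for 18 of the 31, against 23.7% of all genes. In each fraction the day 12 array also had the widest spread of signals (SD 1.45 in GFP+ and 1.48 in GFP- cells). The members were brighter than all genes, with mean signals on day 12 of 7.105 against 5.871 in GFP+ and 8.315 against 5.921 in GFP- cells. The shares over all genes are therefore not those of equally bright genes, and the part of the spread was not tested. The signal on day 12 minus the mean of day 11 and day 13, averaged over the fractions, had a median of 0.45 for the members and -0.05 for all genes. It was 1.29 for Slc1a3, 1.12 for Pax6, 1.12 for Psat1, 1.002 for Acsbg1, 0.97 for Ccnd1, 0.90 for Ednrb and 0.84 for Vim. No gene passed the limma test of this contrast after adjustment. In either direction, 13 of the 31 had an unadjusted p under 0.05, against 14.1% of all genes. Among the 13, Sox1 and Sox3 were lower on day 12, by -1.47 and -0.52. In GFP+ cells the whole SoxB1 group, Sox1, Sox2 and Sox3, had its lowest signal on day 12. These signals were below the mean of the other days by 2.06, 0.76 and 0.68 on the log2 scale. In all, 8 of the 31 were lowest on day 12 in GFP+ cells (45.7% of all genes), also Nr2e1, Hopx, Msi1, Phgdh and Lrp2. In GFP- cells 2 of the 31 were lowest on day 12, Sox1 and Sox3 (45.4% of all genes). Sox2, Msi1 and Phgdh, 3 of the 31, were at their lowest in GFP+ cells and at their highest in GFP- cells on that day (6.60% of all genes). The interaction of fraction with day 12 passed for 0 genes after adjustment, and at an unadjusted p under 0.05 it held for 6 of the 31, against 4.47% of all genes. With 1 array per fraction and day, a difference between days and a difference between single cultures or arrays cannot be told apart.

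**Figure D3:**
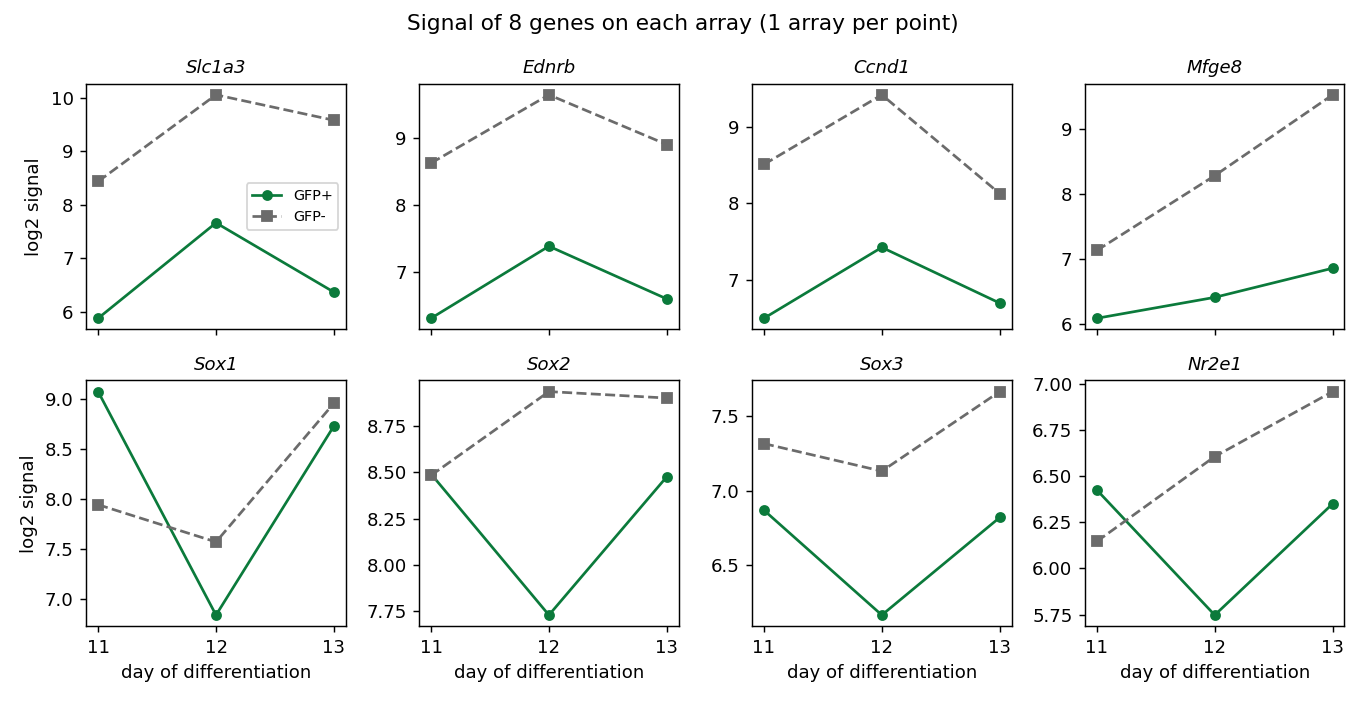
Log2 signal (y axis) of 8 genes on day 11, day 12 and day 13 (x axis) in GFP+ (green, solid) and GFP- cells (gray, dashed), with 1 array per point and a separate scale in each panel. Slc1a3, Ednrb and Ccnd1 peak on day 12 in both fractions, Mfge8 reaches 9.53 in GFP- cells on day 13, and the GFP+ signals of Sox1, Sox2, Sox3 and Nr2e1 are lowest on day 12.

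A second list, also chosen with earlier results of these data known, held other genes of radial glia. Of its 31 measured genes, 10 were lower in GFP+ cells past the test, 0 were higher and 21 did not pass, with a median difference of -0.92. Among them were Gli3, the repressor of Hedgehog signaling in the dorsal telencephalon (-2.11), Notch1, the receptor that keeps progenitors undifferentiated (-1.89), Ttyh1, a membrane protein of neural stem cells (-1.65), and Fgfr3, a receptor for fibroblast growth factors (-1.64). Both Nfib, a factor of glial and neuronal maturation (0.56), and Slc1a2, the glutamate transporter GLT-1 of later astrocytes (0.04), had a mean difference above 0 and did not pass.

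Lists of pathways to which single members belong each had 0 or 1 gene past the test. In the Hippo pathway, whose outputs are TEAD and YAP, 1 of 16 genes was lower and 0 were higher, with a median of -0.17, and the 1 was Ccn1, a secreted matrix protein and YAP target (-0.97, adjusted p = 0.0446). Of 10 genes of serine and one-carbon metabolism, 1 was lower, Shmt2, the mitochondrial serine hydroxymethyltransferase (-1.34, adjusted p = 0.0461), 0 were higher, and the median was -0.35. Of 18 genes of the apical junction and cell polarity, by which neuroepithelial cells hold to the ventricular surface, 1 was lower, the giant cadherin Fat1 (-1.23, adjusted p = 0.0435), 0 were higher, and the median was -0.02. Cdh2, the N-cadherin of the apical junction, was at 9.49 on average in GFP+ cells and at 9.19 in GFP- cells (difference 0.30, adjusted p = 0.488). Of 7 genes of G1 cyclins and their kinases, 0 passed, and Ccnd2, the other D-type cyclin of cortical progenitors, differed by -0.60. Among 13 other Sox genes 0 passed in either direction. Sox11 and Sox4, SoxC factors of young neurons, had mean differences of 0.96 and 0.66, and Sox8, which like Sox9 belongs to SoxE, of -0.92.

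**Figure D4:**
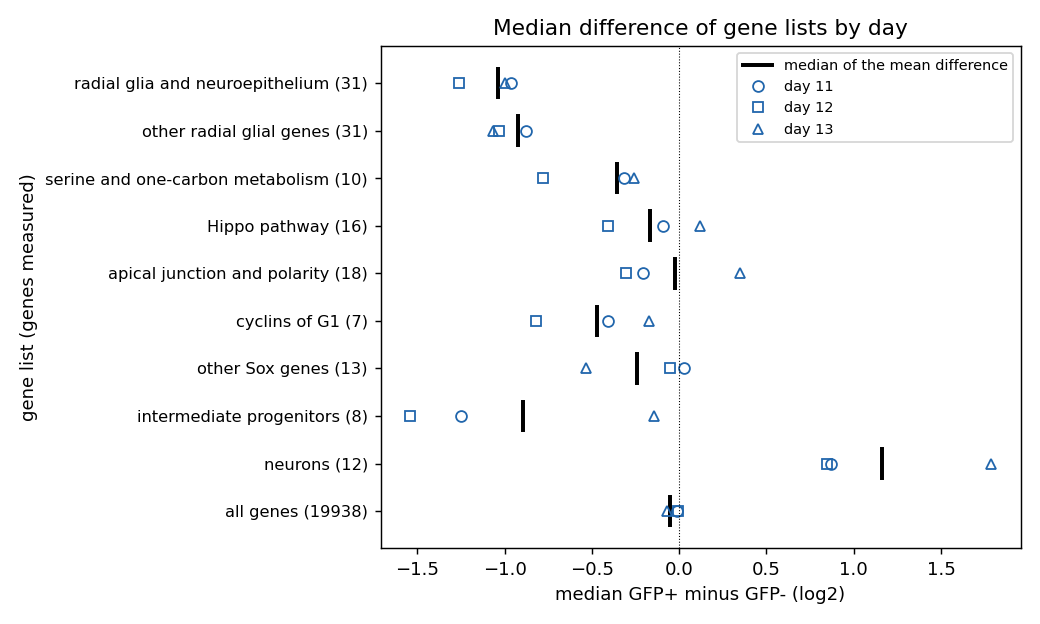
Median difference between GFP+ and GFP- cells (x axis, log2) of 9 gene lists and of all genes (y axis, gene number in brackets). Symbols are the 3 days and bars are medians of the mean difference, which is -1.04 for the 31 genes, -0.92 for other radial glial genes, 1.16 for neuronal markers and -0.05 for all genes.

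Of the marker lists of other cells, those of neurons and of the ganglionic eminence had genes past the test. Of 12 neuronal markers 3 were higher in GFP+ cells, Syt1 (2.34), Myt1l (1.94) and Map2 (0.92), and 0 were lower. All 12 had a mean difference above 0, as did 8175 of all 19938 genes, with a median of 1.16 for the 12. By day the median was 0.87, 0.85 and 1.79 on day 11, day 12 and day 13. The day 13 value rests on the GFP- array that stood apart. Over 2-fold higher in GFP+ cells that day were 9.18% of all genes, against 1.85% on day 11 and 1.48% on day 12. A change of these medians with day was not tested. On day 11 Nefl and Elavl4 were lower in GFP+ cells (-0.74 and -0.13). The summed linear signal of the 12 markers was 9196 to 11430 on the GFP+ arrays and 2822 to 5877 on the GFP- arrays. That of the 31 genes was 7663 to 12590 on the GFP+ arrays and 15100 to 21100 on the GFP- arrays. Neither range overlapped between the fractions. A linear sum is weighted toward the brightest genes, which among the 31 were Fabp7 and Vim. Their mean log2 signals were 11.65 and 10.72 in GFP+ cells and 12.33 and 11.78 in GFP- cells. The sum therefore does not describe the 31 genes evenly. Of 8 markers of intermediate progenitors, 0 passed, with Insm1 at -0.46 and Btg2 at -1.12, and all 8 had a mean difference below 0 (11763 of all 19938 genes). Medians of the 8 markers were -1.25 and -1.54 on day 11 and day 12 and -0.14 on day 13, again with the GFP- array that stood apart. Their summed signal was 373 to 512 on the GFP+ arrays and 493 to 1106 on the GFP- arrays. Of 9 genes of the ganglionic eminence 5 were higher and 0 lower, led by the ventral homeobox genes Dlx1 (3.22), Dlx5 (2.79), Lhx6 (2.504) and Dlx2 (2.49). The part of these cell types in the differences of the 31 genes was not tested. Of 6 astrocyte markers 0 passed, and Gfap, Aqp4 and S100b had mean signals of 4.67 to 5.08 in both fractions, while Aldh1l1, an enzyme that radial glia also express, was at 5.25 in GFP+ and 7.20 in GFP- cells (difference -1.94, adjusted p = 0.0623). For 5 further lists, of pluripotent cells, mesenchyme, choroid plexus, endoderm and surface epithelium, and blood and endothelium, 0 genes passed and the median differences were -0.21 to -0.09. By day these medians were -0.12 to 0.01 on day 11, -0.06 to 0.07 on day 12 and -0.54 to -0.26 on day 13, when the GFP- array was the one that stood apart. The brightest genes of these lists differed by -0.18 (Dppa4) and -0.25 (Nanog), -0.20 (Col1a1) and -0.08 (Col1a2), -0.26 (Folr1) and -0.01 (Kcne2), 0.18 (Krt8) and -0.35 (Krt18), and 0.10 (Cdh5) and 0.45 (Hbb-y). In the oligodendrocyte lineage list 0 of 5 passed, with Pdgfra at 1.26 (adjusted p = 0.0573) and Olig2 at -0.01. Among 9 stress response genes 0 passed, with Jun at -0.78 and Egr1 at -0.17. All 9 had a mean difference below 0 (11763 of all 19938 genes), and the median was -0.23. Their summed signal was 521 to 654 on the GFP+ arrays and 744 to 890 on the GFP- arrays. This sum is also weighted toward the brightest genes, here Jun and Egr1. Their mean log2 signals were 7.34 and 6.70 in GFP+ cells and 8.12 and 6.87 in GFP- cells.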

How the data were processed

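Gene expression was measured on 6 arrays, 3 of GFP+ and 3 of GFP- cells. The deposited values are log2 signals that the authors calculated with RMA16 in GeneSpring. Joint or separate normalization, the version of the annotation and filtering: not given in the sources used here. Values ran from 4.15 to 13.1. Of 28853 probe sets, 21789 had 1 symbol in the platform annotation, 1621 had several and 5443 none, and for 21698 the Entrez ID was found among RefSeq genes of GRCm38.p6, with 0 symbols updated. Each of 19938 genes was represented by its probe set with the highest mean. No dim probe set was removed, and all 31 genes were above the 20th percentile of all values on each array.

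GFP+ and GFP- cells were compared by limma 3.58.1 (R 4.3.3) in a model of fraction plus day (2 residual degrees of freedom), with eBayes and Benjamini-Hochberg adjustment over all genes at 0.05. An exact permutation test over 3 pairs cannot go below p = 0.25. The pairing comes from the day in the labels. After subtraction of the fraction mean, arrays of 1 day correlated at 0.112, 0.558 and 0.368 across genes on day 11, day 12 and day 13. For GFP+ cells of day 11 the closest GFP- array was that of day 13 instead (0.297). Tested on simulated data of 19938 genes, the model found 20.9% of genes made to differ by 1 on the log2 scale and 90.7% by 2, and 5.24% of calls were false. The simulated variances followed the distribution that limma itself had fitted, and no simulated array stood apart as the GFP- array of day 13 did. These shares therefore do not give the error rate of the calls in the measured data. The members and the gene lists were chosen with earlier results of these data known, and all members are named. From other lists up to 4 called genes are named, or, in marker and stress lists with none, the 2 with the highest mean. Cdh2, Ccnd2, Sox4, Sox8, Sox11, Nfib, Slc1a2, Eomes, Gfap and Aqp4 were chosen after their values were seen. Neurog1, Nefl and Elavl4 also lie outside this naming rule. The number of arrays limits the precision. Alternatives left out the day term or 1 day, centred arrays on the median, applied quantile normalization, averaged probe sets or removed dim genes. Others used trended, robust eBayes or Student's t-test, or tested probe sets singly. The paper names Student's t-test for its in vitro and in vivo data and states no test for the arrays. The fit without day and without the day 13 GFP- array, and the day 12 contrast, were added after seeing the data. Promoter windows are from RefSeq. Those of Ccnd1, Msi1, Sox3 and Sox9 were not used here.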

Additional observations from a re-analysis of the deposited data

Results flagged for a closer look

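Sox1 had opposite differences on 2 days, each over 0.5 in size on the log2 scale. GFP+ cells were 1.13 higher than GFP- cells on day 11 and 0.73 lower on day 12 (differences 1.13 and -0.73). With 1 array per fraction and day this change of sign was not tested by itself, and the interaction of fraction with day had an adjusted p of 0.999 from limma.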

How the results depend on the processing

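The direction of the decrease was kept in nearly every alternative and the calls were not. Of the 432 values of single genes under the 14 alternatives, 328 kept direction and side of the threshold, 56 lost the call, 44 gained one and 4 changed sign. The 4 belonged to genes that were not called, with differences of -0.48 for Sox1 and 0.004 for Dach1 without day 11, 0.15 for Msi1 without day 12, and -0.16 for Sox1 after a further quantile normalization. Leaving out 1 day gave -0.48 to 0.45 for Sox1, -0.5 to 0.004 for Dach1 and -0.504 to 0.154 for Msi1. The number of the 31 genes called lower was 10, and it was 2 with no replicate block for the day and 0 after centring on the array medians. It was 19 of 29 among genes above the 50th percentile and 19 with a trended and robust eBayes. With Student's t-test it was 0 after Benjamini-Hochberg (12 unadjusted), and it was 3 in the unblocked fit that also lacked the GFP- array of day 13. Leaving out 1 day gave 0 to 16 calls, with 0 without day 13 and 16 without day 12. In the 6 related lists 13 genes were called lower, and the number was 6 with no replicate block and 0 after median centring. It was 21 above the 20th and 25 above the 50th percentile, and 26 with the trended and robust eBayes. With Student's t-test it was 31 unadjusted and 0 adjusted, and it was 0 to 19 when a day was left out. The median difference of the 31 genes stayed between -1.09 and -0.93, and 13 to 17 of them were over 2-fold lower. No member was called higher under any alternative. Quantile normalization ended the calls of Nes, Vim and Tnc (adjusted p = 0.0708, 0.107 and 0.109, limma). Of all genes 0.567% were called lower, against 0.206% with no block, 3.6% above the 50th percentile, 2.56% with the trended and robust eBayes, 3.96% with the unadjusted t-test, 0.572% in the unblocked fit without the day 13 GFP- array, and 1.15% without day 12. Lower and higher calls over all genes were 113 and 159, against 99 and 52 after quantile normalization and 229 and 930 without day 12. The cause of these changes was not tested. Fewer arrays or genes enter where a day or dim genes were left out.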
